A study of Drosophila melanogaster with 16 samples.

Results

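The 38 genes described here encode the precursors of Drosophila neuropeptides and peptide hormones. They were chosen by gene identifier, by a rule that uses no measured value. Earlier results of these data were known when they were chosen. All 50 of their isoforms in the deposited table were taken, out of 25406 isoforms of 15182 genes. For each mark, the isoform with the most reads stood for the gene, and 31 of the 38 genes had 1 isoform only. Gene symbols are those of the deposited table, which differ from current use for some genes, such as npf for NPF, Dh for Dh44, IFa for SIFa, Ast for AstA, Dms for Ms and Proct for Proc.

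The 3 histone modifications compared were measured by chromatin immunoprecipitation and sequencing (ChIP-seq) in nuclei from many pooled adult fly heads. H3K4me3 and H3K27ac are found at active promoters, and H3K27me3 is deposited by Polycomb complexes at silenced genes. In every line a GAL4 driver expressed unc84-GFP, a tagged protein of the nuclear envelope, and nuclei were captured on beads in buffers with sodium butyrate before their chromatin was cut with micrococcal nuclease. OK107-GAL4 marked primarily, and not solely, Kenyon cells, which are the principal neurons of the mushroom body. Tdc2-GAL4 marked primarily octopaminergic neurons. R57C10-GAL4 marked all mature neurons and served as the common reference. OK107 had 1 library for each mark. Tdc2 had 1 library each for H3K4me3 and H3K27ac and 2 for H3K27me3. R57C10 had 2 for each mark, and each line had 1 input library. Where a line has 2 values, the library with the earlier date tag in its name is given first, and the libraries are called early and late.

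Neuropeptides are cut from longer precursors by prohormone convertases, often amidated, stored in dense-core vesicles and released to act mainly on G protein-coupled receptors, while the insulin-like peptides act on the receptor tyrosine kinase InR. Most are made by small, fixed sets of neurons or by endocrine cells outside the brain, and short neuropeptide F is a known product of Kenyon cells. In pooled nuclei of this kind, a mark carried by few cells and a weak mark carried by many cells cannot be told apart.

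Reads in gene bodies, where H3K27me3 was counted, came to 54.8 M in OK107, 8.54 and 7.77 M in Tdc2 and 45.8 and 36.3 M in R57C10. Promoter windows of 1001 bp held between 6.01 and 46.6 M reads for H3K4me3 and between 7.95 and 17.2 M for H3K27ac. At single members the counts ran from 20 reads, at Pdf in late Tdc2 H3K27me3, upwards, and the median member of that library had 124. The driver labels could be read at some marker genes. H3K27me3 at ey, a Kenyon cell transcription factor, stood at 159 CPM in OK107 and 1660 ± 400.0 CPM in R57C10 (SD). Over the 9 Kenyon cell markers the log2 folds of OK107 against R57C10 ran from -3.39 to -0.15. The Tdc2 gene held 62.2 CPM of H3K4me3 in Tdc2 nuclei and 10.3 CPM in OK107 nuclei. H3K4me3 was lower in OK107 than in Tdc2 by 1 or more on the log2 scale at 2 of 4 octopaminergic markers and at 37.4% of all genes. TyrR, another of these markers, went the other way, with 47.7 CPM in OK107 and 36.5 CPM in Tdc2. All marker genes of neurons, glia, photoreceptors, muscle, fat body and blood had reads in every library. They had reads in the inputs too, so reads at a marker do not tell which cells were present. The date tags of the R57C10 libraries were not shared by the other lines in any mark, so driver and date cannot be told apart in comparisons with R57C10. OK107 shared its tag with Tdc2 in H3K4me3 and H3K27ac and with early Tdc2 in H3K27me3. The 2 R57C10 libraries of H3K4me3 stood apart from each other, by over 1 on the log2 scale at 37.3% of genes.

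The peptide genes were short. Their median gene body was 1424 bp, against 1856 bp over all genes, and 17 of 38 were under 1000 bp, against 27% of all genes. Insulin-like genes Ilp1 to Ilp4 lay within 5.85 kb of each other on chromosome arm 3L, and Ilp5 lay 19.1 kb further on. Of the 38 gene bodies, 13 overlapped another gene. Lk, ETH, Ilp5, hug and amn lay wholly inside the span of a neighbour, and Pdf, Dh, Ccap, Lk, Nplp4, Ilp1 and Ilp4 shared bases of their promoter window with one. Counting by strand is not stated, so reads in shared bases cannot be assigned to either gene.

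Almost none of the peptide genes stood 2-fold or more over input in any of the 3 marks. Levels are given as the log2 ratio of a library's CPM (counts scaled to library size) to that of the input of the same line, which removes gene length, so 0 means the level of input and 1 means 2-fold over it. Scaling is by total count, so 0 need not be the level of an unmarked gene. In H3K4me3 the median gene stood at -2.69 in late R57C10 and -0.75 in Tdc2. More members reached 2-fold in H3K27me3 and H3K4me3 when ratios were centred on the median gene, as given in the last section. No member reached 2-fold over input for H3K4me3 in any line, while 31.6% of all genes did in OK107, 23.2% in Tdc2 and 29.7% in R57C10. None reached it for H3K27ac, against 12% of all genes in OK107, 3.91% in Tdc2 and 11.4% in R57C10. A line with 2 libraries counted only where both reached it. For H3K27me3, Tk did so in OK107 and in R57C10, and Nplp2 passed it in late R57C10 alone, at 2.22-fold, against 8.4% of all genes in OK107, 8.1% in Tdc2 and 7.46% in R57C10. Thus 37 members in OK107, 38 in Tdc2 and 37 in R57C10 had none of the 3 marks at 2-fold over input, a state shared by 58.6%, 68% and 61.2% of all genes in the same lines.

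**Figure D1:**
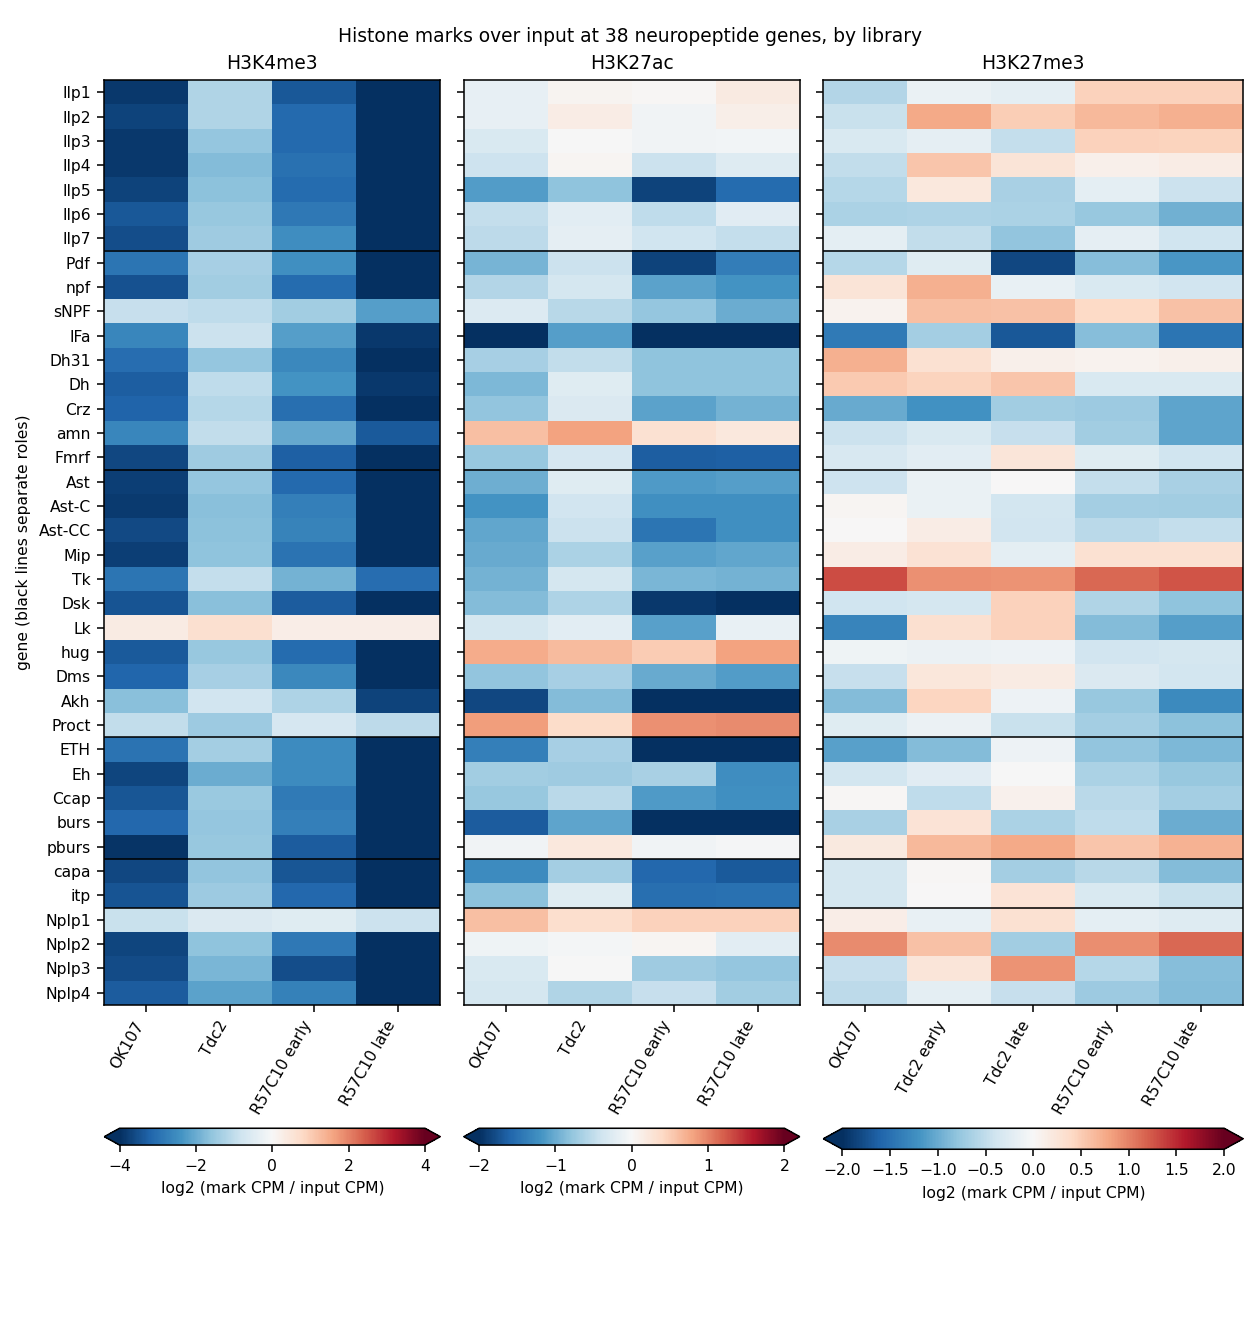
Log2 ratio of mark over input at the 38 peptide genes, which run down the page by role, in each library across the page, with H3K4me3, H3K27ac and H3K27me3 in panels whose colour scales differ. Red is above and blue below input: H3K4me3 is blue at every gene except Lk, H3K27ac is red in every library at amn, hug, Proct and Nplp1, and H3K27me3 is reddest at Tk, at 1.30 in OK107.

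H3K4me3, the promoter mark, was below input in every library at 37 of 38 members, against 54.4% of all genes. The exception was Lk (CG13480), which encodes the diuretic peptide leucokinin, with log2 ratios of 0.34 in OK107, 0.64 in Tdc2 and 0.26 and 0.27 in R57C10. Its window shares bases with that of CG34039, a gene named here because of that overlap, whose own ratios ran from 0.83 to 1.70. The median member stood at -3.44 in OK107, -1.47 in Tdc2 and -2.78 and -4.35 in R57C10, and the median of all genes at -2.02, -0.75, -1.24 and -2.69 in the same libraries. The members thus lay lower than the median gene in each library, and the distance from input differed between libraries in both sets.

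Some other members came closer to input in H3K4me3 than the median member. Nplp1 (CG3441), a neuropeptide-like precursor found by peptide sequencing, had log2 ratios of -0.90 in OK107, -0.56 in Tdc2 and -0.49 and -0.86 in R57C10. Proct (CG7105), the precursor of the muscle-active peptide proctolin, had -0.997 in OK107, -1.45 in Tdc2 and -0.69 and -1.05 in R57C10. sNPF (CG13968) had -0.92 in OK107, -1.02 in Tdc2 and -1.40 and -2.22 in R57C10, and was closer to input in OK107 than in Tdc2, as was Proct. Akh (CG1171), the adipokinetic hormone of the corpora cardiaca, stood at -1.67 in OK107, -0.76 in Tdc2 and -1.23 and -3.69 in R57C10, with its 2 R57C10 libraries further apart than at any other member. The 7 insulin-like genes ranged from -3.87 to -3.40 in OK107, from -1.73 to -1.21 in Tdc2, from -3.39 to -2.48 in early R57C10 and from -4.64 to -4.01 in late R57C10.

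H3K27ac stayed below input in every library at 29 of 38 members, against 38.8% of all genes, and above it in every library at 4. Those were hug, amn, Proct and Nplp1. hug (CG6371), which encodes the feeding-related peptide hugin, had log2 ratios of 0.74 in OK107, 0.64 in Tdc2 and 0.51 and 0.80 in R57C10. amn (CG11937), needed for memory and active in the dorsal paired medial neurons, had 0.60 in OK107, 0.80 in Tdc2 and 0.30 and 0.21 in R57C10, and both genes lie inside a larger neighbour. Proct had 0.84 in OK107, 0.37 in Tdc2 and 0.91 and 0.95 in R57C10, and Nplp1 had 0.60 in OK107, 0.34 in Tdc2 and 0.46 and 0.46 in R57C10. All 4 were thus acetylated at less than 2-fold over input in every line.

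The clustered insulin-like genes sat near input in H3K27ac. Ilp1 (CG14173) had log2 ratios of -0.16 in OK107, 0.06 in Tdc2 and 0.02 and 0.18 in R57C10, and Ilp2 (CG8167), an insulin of the brain's insulin-producing cells, had -0.16 in OK107, 0.14 in Tdc2 and -0.07 and 0.12 in R57C10. Ilp5 (CG33273), made by the same cells but placed outside the cluster, was lower in every library, at -1.12 in OK107, -0.80 in Tdc2 and -1.85 and -1.54 in R57C10. pburs (CG15284) and burs (CG13419), which encode the 2 subunits of the cuticle-hardening hormone bursicon, also differed: pburs had -0.07 in OK107, 0.21 in Tdc2 and -0.06 and -0.02 in R57C10, and burs had -1.66 in OK107, -1.06 in Tdc2 and -2.08 and -2.04 in R57C10. In R57C10 the lowest values belonged to IFa (CG33527), the SIFamide precursor of a few cells of the pars intercerebralis, at -2.05 in OK107, -1.10 in Tdc2 and -2.82 and -2.36 in R57C10, to Akh, at -1.83 in OK107, -0.86 in Tdc2 and -2.64 and -2.85 in R57C10, and to ETH (CG18105), the trigger of ecdysis made by the tracheal Inka cells, at -1.36 in OK107, -0.66 in Tdc2 and -2.51 and -2.21 in R57C10. IFa was also the lowest member in OK107 and in Tdc2, whereas burs lay below ETH in both of these lines and below Akh in Tdc2.

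H3K27me3 was spread on both sides of input. It was above input in every library at Tk, sNPF, Dh31 and pburs, and below in every library at 11 members (Ilp6, Ilp7, Pdf, IFa, Crz, amn, hug, Proct, ETH, Eh and Nplp4), against 53.8% of all genes. Tk (CG14734), the tachykinin precursor of brain and gut, had log2 ratios of 1.30 in OK107, 0.91 and 0.91 in Tdc2 and 1.14 and 1.26 in R57C10. These were the highest of the set in every library, with Nplp3 close by in late Tdc2, at 0.90. sNPF had 0.08 in OK107, 0.60 and 0.59 in Tdc2 and 0.39 and 0.59 in R57C10, lowest in OK107. Dh31 (CG13094), a diuretic hormone of the calcitonin family, had 0.71 in OK107, 0.31 and 0.10 in Tdc2 and 0.07 and 0.11 in R57C10, highest in OK107, and pburs had 0.19 in OK107, 0.65 and 0.76 in Tdc2 and 0.56 and 0.70 in R57C10. The median member stood at -0.36 in OK107, -0.05 and -0.10 in Tdc2 and -0.43 and -0.47 in R57C10. It lay above the median gene and closer to input in each. The median gene stood at -0.83, -0.33 and -0.33, and -0.77 and -0.996 in the same libraries. Members above the median gene numbered 33 of 38 in OK107, 31 and 23 in Tdc2 and 34 and 32 in R57C10.

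**Figure D2:**
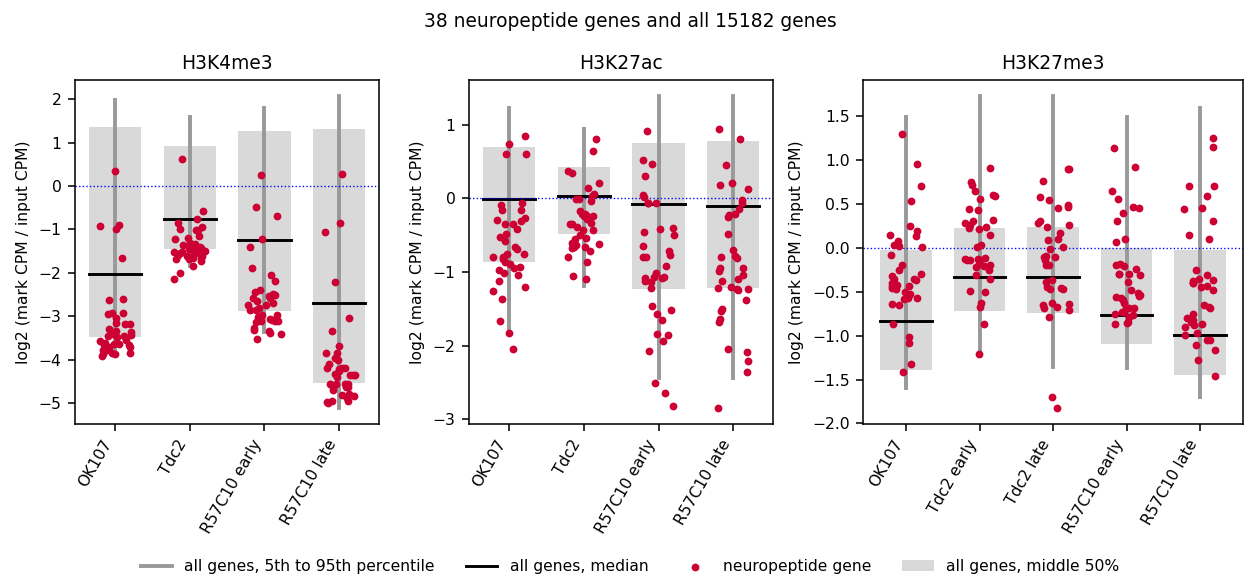
Log2 ratio of mark over input at the 38 peptide genes (dots) in each library, over the median, the middle 50% and the 5th to 95th percentile of all genes, for H3K4me3, H3K27ac and H3K27me3. The dots gather at the low end of H3K4me3, where the median member is -3.44 in OK107 and the median gene -2.02. In H3K27me3 most dots lie above the median gene, 33 of 38 in OK107.

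The 7 insulin-like genes lay on different sides of input by line in H3K27me3. OK107 had 1 library, and none of the 7 was called against R57C10 (smallest edgeR adjusted p = 0.252). The ratios rest on 1 input a line. At Ilp1 to Ilp4 the input held 10.2, 15.8, 17.0 and 17.3 CPM in OK107 and 7.71, 12.2, 15.5 and 14.8 CPM in R57C10. In OK107 all 7 genes were below input, between -0.64 and -0.19. In both R57C10 libraries the clustered Ilp1, Ilp2, Ilp3 and Ilp4 were above it, between 0.10 and 0.71, and Ilp5, Ilp6 and Ilp7 below. In Tdc2, Ilp2, with 0.76 and 0.50, and Ilp4, with 0.56 and 0.26, were above input in both libraries, and Ilp1, Ilp3, Ilp7 and Ilp6 (CG14049), an insulin-like peptide of the fat body, below in both.

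Among the clock, arousal and stress peptides, the low H3K27me3 values were those of Pdf (CG6496), the transmitter of clock neurons, of IFa, and of Crz (CG3302), the corazonin gene. Pdf had log2 ratios of -0.58 in OK107, -0.25 and -1.83 in Tdc2 and -0.85 and -1.16 in R57C10, and Crz had -1.02 in OK107, -1.20 and -0.70 in Tdc2 and -0.73 and -1.05 in R57C10. IFa had -1.41 in OK107, -0.68 and -1.70 in Tdc2 and -0.84 and -1.46 in R57C10. In CPM the early and late Tdc2 libraries were furthest apart at Pdf, and by over 1 on the log2 scale at 3 members, Pdf, IFa and Nplp2. npf (CG10342), the fly neuropeptide F gene, had 0.25 in OK107, 0.72 and -0.14 in Tdc2 and -0.30 and -0.38 in R57C10, and Fmrf (CG2346), the FMRFamide precursor, had -0.32 in OK107, -0.21 and 0.24 in Tdc2 and -0.24 and -0.40 in R57C10, with Tdc2 libraries of opposite sign at both genes.

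The feeding and gut-brain peptides other than Tk lay on both sides of input in H3K27me3, below 2-fold over it in every library. Lk had log2 ratios of -1.33 in OK107, 0.32 and 0.45 in Tdc2 and -0.87 and -1.11 in R57C10. The 3 allatostatin genes Ast (CG13633), Ast-C (CG14919) and Ast-CC (CG14920), whose products inhibit hormone release or muscle contraction in insects, ranged from -0.69 to 0.15 over all libraries. Mip (CG6456), the myoinhibiting peptide gene, was at 0.14 in OK107, 0.29 and -0.19 in Tdc2 and 0.31 and 0.31 in R57C10. Among all genes it ranked at percentile 81.1 in OK107, 77.4 and 57.1 in Tdc2 and 83.8 and 80.9 in R57C10. Dsk (CG18090), the sulfakinin gene related to cholecystokinin, had -0.40 in OK107, -0.35 and 0.47 in Tdc2 and -0.60 and -0.80 in R57C10, while Dms (CG6440), the myosuppressin gene, had -0.46 in OK107, 0.23 and 0.17 in Tdc2 and -0.30 and -0.36 in R57C10 and Akh had -0.87 in OK107, 0.44 and -0.10 in Tdc2 and -0.75 and -1.27 in R57C10. In these last 3 genes every OK107 and R57C10 value was below input and at least 1 Tdc2 value was above it.

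The ecdysis, water balance and NPLP genes varied as widely. Eh (CG5400), the eclosion hormone gene, had -0.36 in OK107, -0.22 and -0.02 in Tdc2 and -0.63 and -0.76 in R57C10, and Ccap (CG4910), the gene of crustacean cardioactive peptide, had 0.02 in OK107, -0.50 and 0.09 in Tdc2 and -0.53 and -0.68 in R57C10. The peptides of capa (CG15520) and itp (CG13586) act on the Malpighian tubules and hindgut. The capa gene stood at -0.36 in OK107, 0.03 and -0.67 in Tdc2 and -0.56 and -0.87 in R57C10, and the itp gene at -0.35 in OK107, 0.02 and 0.28 in Tdc2 and -0.30 and -0.45 in R57C10. Nplp2 (CG11051) was at 0.95 in OK107, 0.59 and -0.69 in Tdc2 and 0.92 and 1.15 in R57C10, with late Tdc2 apart from the other 4 libraries. Nplp3 (CG13061) was at -0.47 in OK107, 0.24 and 0.90 in Tdc2 and -0.57 and -0.85 in R57C10, above input in Tdc2 only, and Nplp4 (CG15361) was at -0.52 in OK107, -0.19 and -0.46 in Tdc2 and -0.73 and -0.87 in R57C10.

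Differences between lines were tested with edgeR's quasi-likelihood test on counts of all genes, with Benjamini-Hochberg adjustment over all genes tested and a false discovery rate of 0.05. Levels in the comparisons are CPM after TMM scaling and are read within a gene only. The labels do not say that replicates are separate preparations, so p-values measure the spread between these libraries, which may be technical, and a single library is assumed to vary like the replicated ones. The 3 comparisons share libraries, so their values are not independent of each other.

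H3K27me3 in OK107 against R57C10 differed at 1 member, Dh, and 2.19% of all genes were called, 1.57% higher and 0.617% lower in OK107. Dh (CG8348) encodes the corticotropin-releasing-factor-like diuretic hormone DH44, which also carries clock output in the brain. It held 244 CPM in OK107, against 141 and 160.0 CPM in R57C10, so that the OK107 library lay above both. The Tdc2 libraries, at 184 and 200.2 CPM, lay above both as well. Over input its log2 ratios were 0.53 in OK107, 0.45 and 0.55 in Tdc2 and -0.30 and -0.31 in R57C10. The log2 fold change of OK107 against R57C10 was 0.70 ± 0.16 (SE, edgeR adjusted p = 0.0418). Dh was no longer called with RLE scaling (edgeR adjusted p = 0.122) or with only these lines in the model (0.112). Fst, a gene that overlaps 9.37% of the Dh body and is named for that reason, had a log2 fold of 0.80 and was not called (edgeR adjusted p = 0.125).

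Members that did not pass in OK107 against R57C10 included those with the largest folds in the other direction. Ilp2 held 13.2 CPM in OK107, against 19.6 and 23.5 CPM in R57C10, a log2 fold of -0.71 ± 0.25 (SE, edgeR adjusted p = 0.252). The sNPF gene held 355 CPM in OK107, against 485 and 640.0 CPM in R57C10, a log2 fold of -0.67 ± 0.19 (SE, edgeR adjusted p = 0.121). The OK107 value lay below both R57C10 values at either gene. Dh31 held 333 CPM in OK107, against 207 and 244 CPM in R57C10, a log2 fold of 0.57 ± 0.17 (SE, edgeR adjusted p = 0.132). The median log2 fold of the members was 0.13, with 27 of 38 positive. Over all genes the split of calls was 229 higher and 90 lower in OK107, and with scaling by total count it was 369 higher and 265 lower. The share of all genes called with a library left out is not given here, so member counts in such fits have no background. Member calls numbered 3 without early R57C10, 4 without late R57C10 and 5 without either Tdc2 library, Dh among them each time.

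H3K27me3 in Tdc2 was lower than in R57C10 at 6 members and higher at 1, against a background of 19.7% of all genes called, 14.7% lower and 4.95% higher. The members that fell were 3 insulin-like genes (Ilp1, Ilp3 and Ilp7), Nplp2, Tk and Mip, and the one that rose was Lk. With scaling by total count the calls among members were 7 higher and 4 lower. Those among all genes were 3960 higher and 1374 lower, in place of 722 higher and 2148 lower. That scaling puts the median of all genes at a log2 fold of 0.40, so a direction here is relative to the bulk of genes. The share of all genes called with a library left out is not given here, so member counts in such fits have no background. Member calls numbered 3 without late R57C10, 7 without early R57C10, 9 without late Tdc2 and 11 without early Tdc2.

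Within the insulin-like cluster, Ilp1 held 4.49 and 4.32 CPM in Tdc2, against 10.9 and 12.5 CPM in R57C10, a log2 fold of -1.40 ± 0.28 (SE, edgeR adjusted p = 0.00375). Ilp3 (CG14167), an insulin of the brain's insulin-producing cells, held 11.1 and 9.09 CPM in Tdc2, against 21.9 and 24.9 CPM in R57C10, a log2 fold of -1.21 ± 0.21 (SE, edgeR adjusted p = 0.00163). Both Tdc2 values lay below both R57C10 values at each gene. Ilp2, which lies between them, held 16.0 and 13.4 CPM in Tdc2, against 19.6 and 23.5 CPM in R57C10, a log2 fold of -0.55 ± 0.21 (SE, edgeR adjusted p = 0.0884), and did not pass. Ilp4 (CG6736), expressed in the embryo, had a log2 fold of -0.18 ± 0.21 (SE, edgeR adjusted p = 0.596). CG14168, named because it shares promoter bases with Ilp1, was lower too, by 0.70 on the log2 scale (edgeR adjusted p = 0.00507). Without late R57C10, Ilp1 had a log2 fold of -1.30 and was no longer called (edgeR adjusted p = 0.142).

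Ilp7 (CG13317), a relaxin-like peptide of neurons of the ventral nerve cord, held 7.28 and 5.98 CPM in Tdc2, against 11.7 and 11.5 CPM in R57C10. Its log2 fold was -0.80 ± 0.25 (SE, edgeR adjusted p = 0.0416), with both Tdc2 libraries below both R57C10 libraries. The call was lost in 7 of 13 other settings, with log2 folds of -0.95 to -0.45 over the 13. Among them were both fits without an R57C10 library (edgeR adjusted p = 0.284 without early and 0.391 without late), DESeq2 (adjusted p = 0.0612) and scaling by total count (edgeR adjusted p = 0.293).

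Tk held 206 and 207 CPM in Tdc2, against 287 and 357 CPM in R57C10, with no overlap between the lines, and its log2 fold was -0.64 ± 0.14 (SE, edgeR adjusted p = 0.00695). It was called with each library left out in turn, at -0.83 without early R57C10 and -0.48 without late R57C10. Ect3, which overlaps 37.3% of the Tk body and is named for that reason, was lower by 0.72 on the log2 scale (edgeR adjusted p = 0.00319). When the trend of folds along enrichment was taken out, the log2 fold of Tk turned to 0.18 and was not called.

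Nplp2 held 11.0 and 4.43 CPM in Tdc2, against 17.0 and 22.9 CPM in R57C10, a log2 fold of -1.36 ± 0.34 (SE, edgeR adjusted p = 0.0137). Both Tdc2 values lay below both R57C10 values, and late Tdc2 was the lowest. The log2 fold was -2.16 without early Tdc2 and -0.86 without late Tdc2, and without late R57C10 it was -1.14 and not called (edgeR adjusted p = 0.0756). In the 13 other settings the call of Nplp2 was lost in 2, and the smallest fold was -0.66. Mip held 55.8 and 40.3 CPM in Tdc2, against 65.6 and 75.1 CPM in R57C10, without overlap, a log2 fold of -0.55 ± 0.17 (SE, edgeR adjusted p = 0.0454). It was -0.45 without late R57C10 (edgeR adjusted p = 0.211), -0.33 without late Tdc2 (0.223) and -0.80 without early Tdc2 (0.00137). The call was lost in 6 of 13 other settings, and the smallest fold, -0.18, came with scaling by total count (edgeR adjusted p = 0.426).

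Lk, which lies wholly inside CG34039, held 6.48 and 7.20 CPM in Tdc2, against 3.38 and 3.28 CPM in R57C10, both Tdc2 values above both R57C10 values. Its log2 fold was 1.04 ± 0.33 (SE, edgeR adjusted p = 0.0459), and the call was lost in 5 of 12 other settings, among them without early R57C10 (0.459) or late R57C10 (0.577). The median log2 fold of the members was -0.09, with 16 of 38 positive.

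Markers of cell types were counted in the same comparison, where 14.7% of all genes were called lower and 4.95% higher. In Tdc2 against R57C10, H3K27me3 was called lower at 3 of 7 photoreceptor markers, whose summed level was 490 to 520 CPM in Tdc2 and 798 to 874 CPM in R57C10. It was lower at 2 of 7 glial markers (333 to 354 CPM and 412 to 479 CPM), at 2 of 7 markers of muscle, fat body and blood (823 to 915 CPM and 857 to 865 CPM), at 5 of 9 Kenyon cell markers (3948 to 4123 CPM and 5219 to 6766 CPM) and at 3 of 3 endocrine markers (2277 to 2383 CPM and 3135 to 4136 CPM), one of which is the member Mip. H3K27me3 was also lower at 2 of 4 octopaminergic markers (839.5 to 841.4 CPM and 1467 to 1826 CPM). At 2 of 6 neuronal markers it was higher (1026 to 1097 CPM and 807.8 to 821.5 CPM). In OK107 against Tdc2, 5 of 7 photoreceptor markers were called higher, with a summed level of 948 CPM in OK107, and 14% of all genes were. The part of these cells in the members' folds was not tested.

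**Figure D3:**
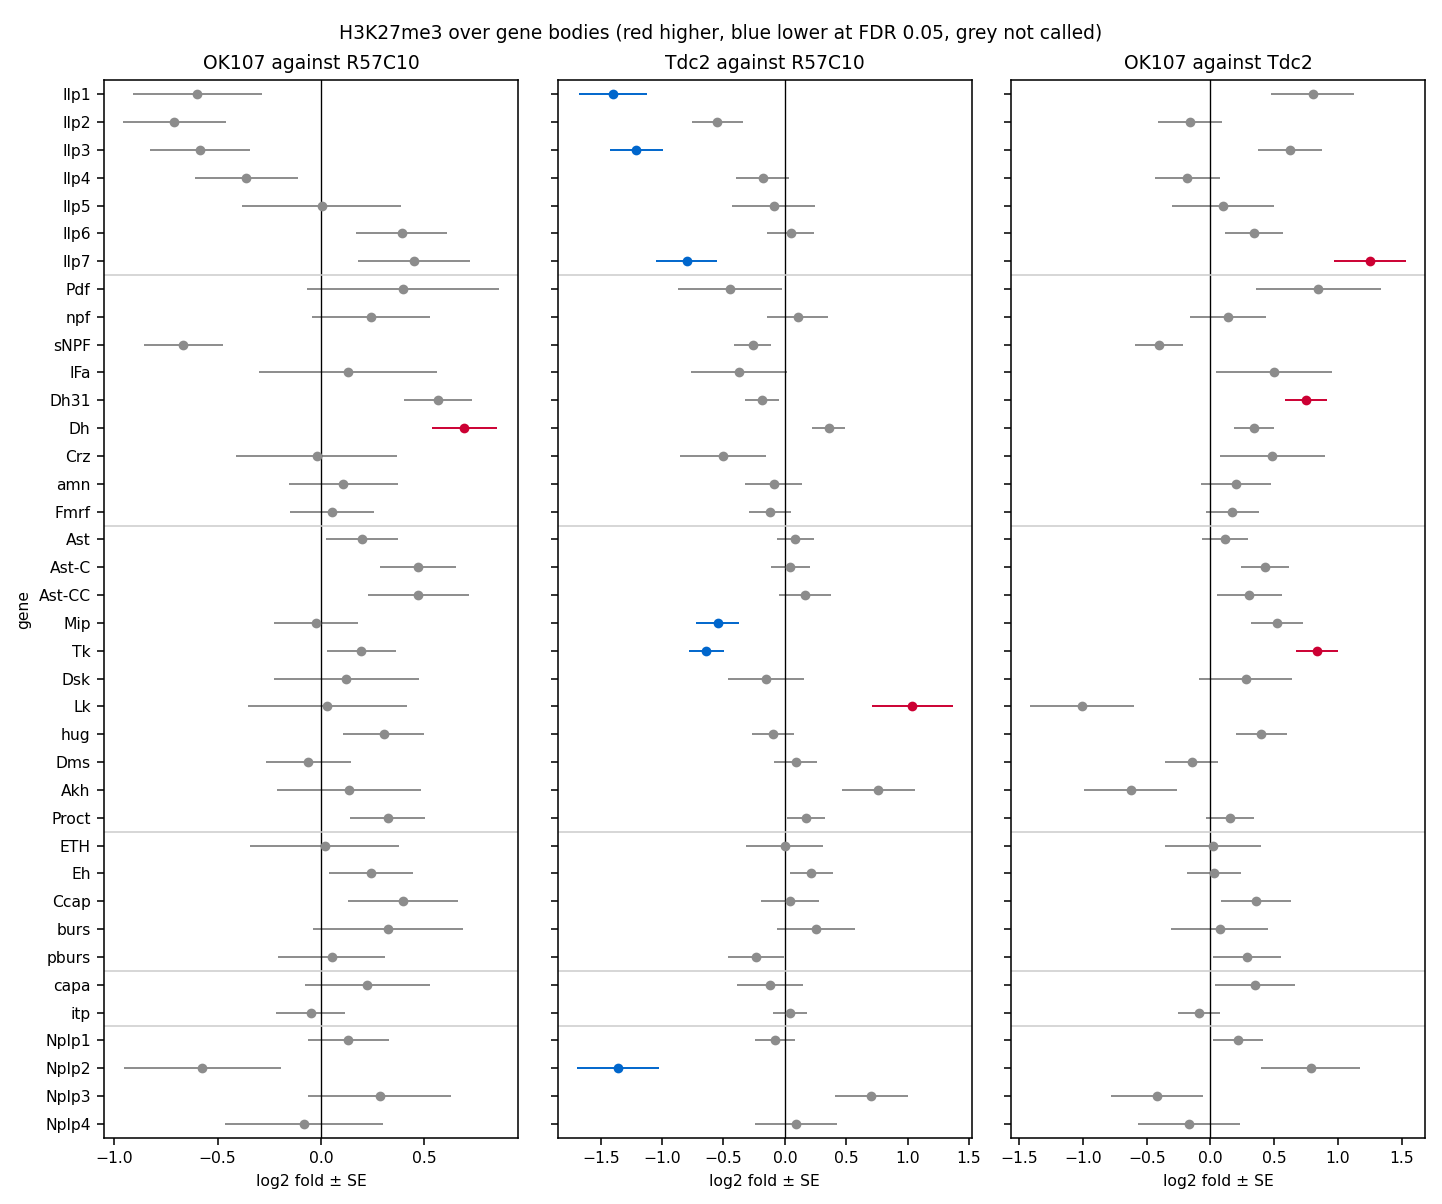
Log2 fold change of H3K27me3 with its standard error at each of the 38 peptide genes, for OK107 against R57C10, Tdc2 against R57C10 and OK107 against Tdc2, with genes down the page by role. Red marks members called higher and blue those called lower by edgeR at a false discovery rate of 0.05: Dh in the first panel, 6 blue genes led by Ilp1 at -1.40 and red Lk in the second, and Ilp7, Dh31 and Tk in the last.

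H3K27me3 in OK107 against Tdc2 compares libraries of the 2 driver lines, which mark their neurons primarily. OK107 had 1 library of 54.8 M reads and Tdc2 had 2, of 8.54 and 7.77 M. H3K27me3 was higher in OK107 at 3 members and lower at none, against 15.4% of all genes called, 14% higher and 1.46% lower in OK107. Ilp7 held 15.9 CPM in OK107, against 7.28 and 5.98 CPM in Tdc2, a log2 fold of 1.25 ± 0.29 (SE, edgeR adjusted p = 0.00943). Tk held 369 CPM in OK107, against 206 and 207 CPM in Tdc2, a log2 fold of 0.84 ± 0.17 (SE, edgeR adjusted p = 0.00422). Dh31 held 333 CPM in OK107, against 211 and 185 CPM in Tdc2, a log2 fold of 0.75 ± 0.17 (SE, edgeR adjusted p = 0.00786). The OK107 value lay above both Tdc2 values at all 3 genes. Of 13 other settings, the call was lost in 2 for Ilp7, with total count scaling (0.85, edgeR adjusted p = 0.0933) and an input offset (0.88, 0.0694), in 2 for Dh31 and in 1 for Tk.

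The neighbours that overlap Tk and Dh31, named for that reason, were higher in OK107 than in Tdc2 as well, Ect3 by a log2 fold of 0.81 (edgeR adjusted p = 0.00511) and Bace, which covers 7.99% of Dh31, by 0.66 (edgeR adjusted p = 0.0273). Within the date tag that OK107 shares with early Tdc2, that is, without late Tdc2, Ilp7 (1.12, edgeR adjusted p = 0.000398) and Tk (0.84, 0.0204) were called and Dh31 (0.66, 0.0658) was not. Member calls numbered 14 without early Tdc2, 7 without late Tdc2 and 5 without either R57C10 library. The share of all genes called in those fits is not given here, so these counts have no background. With scaling by total count, calls among members were 2 higher and 3 lower. Among all genes they were 1271 higher and 2447 lower, in place of 2036 higher and 213 lower, and the median of all genes moved to -0.44. When the trend along enrichment was taken out, the log2 fold of Tk was 0.043. The largest fold in the other direction was that of Lk, which held 3.41 CPM in OK107, against 6.48 and 7.20 CPM in Tdc2 and did not pass, at -1.01 ± 0.41 (SE, edgeR adjusted p = 0.136).

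H3K27ac in OK107 against R57C10 rose at 3 members and fell at none, against 10.5% of all genes called, 7.42% higher and 3.07% lower in OK107. The 3 were ETH, IFa and Dsk, all below input in every library. ETH held 44.1 CPM in OK107, against 17.6 and 20.9 CPM in R57C10, a log2 fold of 1.20 ± 0.28 (SE, edgeR adjusted p = 0.00124). IFa held 36.6 CPM in OK107, against 16.2 and 21.7 CPM in R57C10, a log2 fold of 0.96 ± 0.28 (SE, edgeR adjusted p = 0.0139). Dsk held 59.9 CPM in OK107, against 35.5 and 31.1 CPM in R57C10, a log2 fold of 0.85 ± 0.29 (SE, edgeR adjusted p = 0.0389). The OK107 value lay above both R57C10 values at each. DESeq2 called 0 of the 38, with adjusted p of 0.0609 for ETH, 0.16 for IFa and 0.164 for Dsk. The members' median log2 fold was 0.23, with 31 of 38 positive.

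H3K27ac in Tdc2 against R57C10 rose at 13 members and fell at none, against 27.8% of all genes called, 20.2% higher and 7.68% lower in Tdc2. The members that rose came from 5 of the 6 roles: Ilp5; Pdf, IFa and Fmrf; Ast, Ast-C, Ast-CC, Dsk and Akh; ETH and burs; capa and itp. No member of the NPLP group was called. Akh held 40.8 CPM in Tdc2, against 15.7 and 13.2 CPM in R57C10, a log2 fold of 1.50 ± 0.28 (SE, edgeR adjusted p = 4.99e-06). IFa held 51.3 CPM in Tdc2, against 16.2 and 21.7 CPM in R57C10, a log2 fold of 1.45 ± 0.28 (SE, edgeR adjusted p = 7.63e-06). ETH held 51.8 CPM in Tdc2, against 17.6 and 20.9 CPM in R57C10, a log2 fold of 1.43 ± 0.28 (SE, edgeR adjusted p = 1e-05). In each case the Tdc2 value lay above both R57C10 values and remained below input.

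Pdf held 63.7 CPM in Tdc2, against 28.2 and 38.1 CPM in R57C10, a log2 fold of 0.95 ± 0.29 (SE, edgeR adjusted p = 0.00757). burs held 51.3 CPM in Tdc2, against 25.6 and 25.5 CPM in R57C10, a log2 fold of 1.01 ± 0.28 (SE, edgeR adjusted p = 0.00288), while its partner pburs, at 103 CPM in Tdc2, against 93.3 and 93.6 CPM in R57C10, had 0.15 ± 0.28 (SE, edgeR adjusted p = 0.711). The Tdc2 value lay above both R57C10 values at Pdf, burs and pburs, and closest to them at pburs. The other 8 called members had log2 folds between 0.82 (Ilp5) and 0.92 (capa).

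All 13 members that rose were low in H3K27ac in R57C10. Of the 17 members depleted 2-fold or more in both R57C10 libraries, 13 were called higher in Tdc2, and of all genes so depleted 68.5% were. In OK107 the corresponding figures were 3 of 17 members and 22.8% of all genes. These shares are a description, since the depletion and the fold use the same R57C10 libraries. With the trend of folds along level taken out, 0 members were called in Tdc2 and 1 in OK107, and with the trend along enrichment taken out again 0 and 1. The split of calls over all genes became 553 higher and 658 lower along level in Tdc2, in place of 2966 higher and 1130 lower. In OK107 it became 615 higher and 702 lower, in place of 1091 higher and 452 lower. DESeq2 called 6 of the 13 members in Tdc2: Akh, ETH, IFa, burs, itp and Pdf.

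Markers of cell types were counted in this mark too. Of all genes, 20.2% were called higher and 7.68% lower in Tdc2 against R57C10. In OK107 against R57C10 these shares were 7.42% and 3.07%. In Tdc2 against R57C10, H3K27ac was called higher at 3 of 7 markers of muscle, fat body and blood, with a summed level of 288 CPM in Tdc2 and 167 to 178 CPM in R57C10. It was higher at 2 of 7 glial markers (460 CPM and 330 to 342 CPM) and 2 of 7 photoreceptor markers (499 CPM and 461 to 507 CPM), at 1 of 3 endocrine markers (169 CPM and 138 to 212 CPM) and at 2 of 4 octopaminergic markers, and lower at 1 of 9 Kenyon cell markers and 3 of 6 neuronal markers (487 CPM and 738 to 813 CPM). In OK107 against R57C10, 2 of 7 glial markers (423 CPM in OK107), 1 of 7 muscle, fat body and blood markers (239 CPM), 1 of 3 endocrine markers (272 CPM) and 1 of 9 Kenyon cell markers were called higher, and 1 of 6 neuronal markers (498 CPM) and 1 of 7 photoreceptor markers (534 CPM) lower. The part of such cells in the members' folds was not tested. CR43257, which covers ETH entirely and is named for that reason, rose with it, by log2 folds of 0.99 in OK107 and 1.41 in Tdc2.

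**Figure D4:**
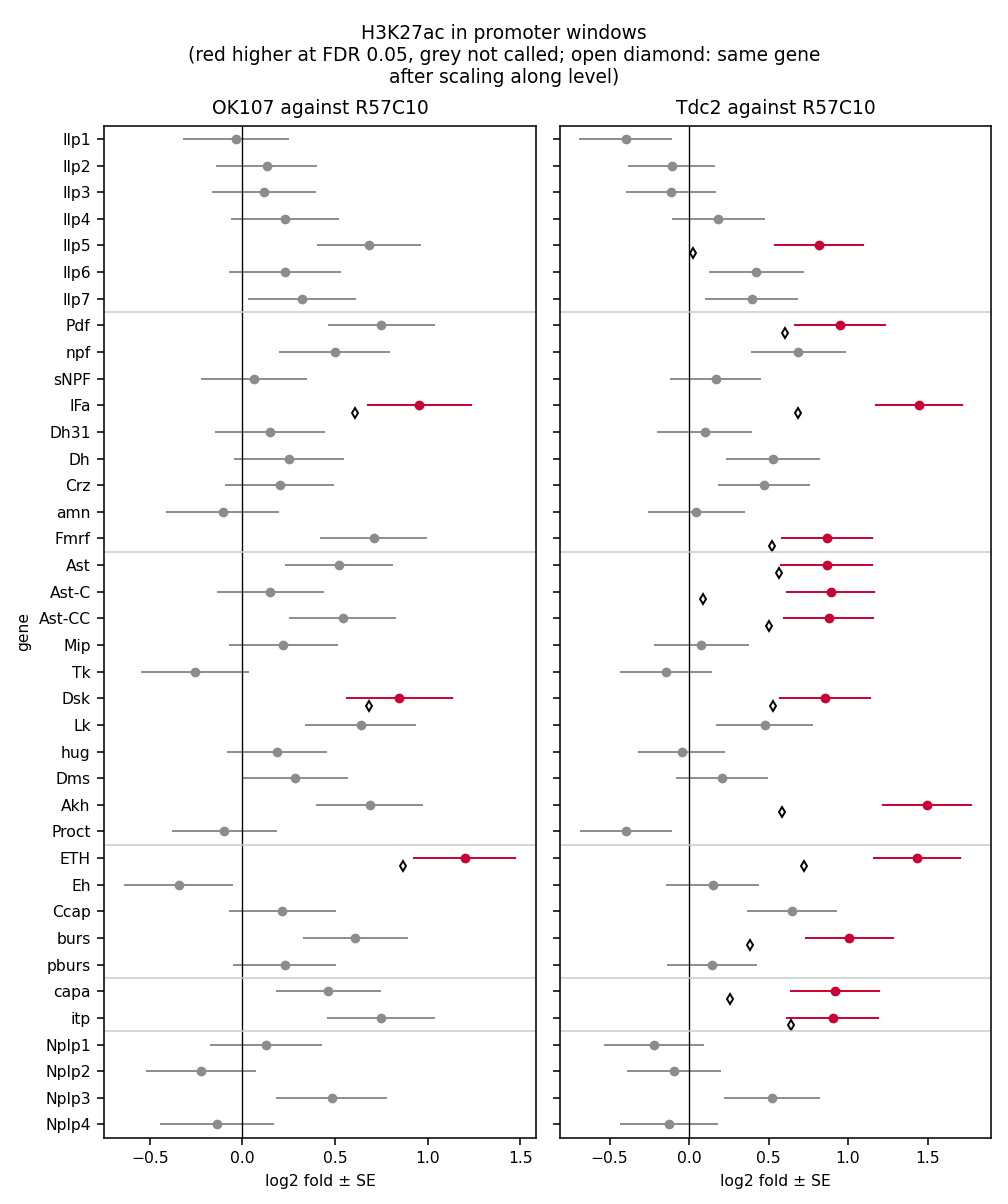
Log2 fold change of H3K27ac with its standard error at each of the 38 peptide genes, for OK107 against R57C10 and Tdc2 against R57C10, with genes down the page by role. Red marks members called higher by edgeR at a false discovery rate of 0.05, 3 and 13 of them, and open diamonds show the same gene after the trend of folds along level was taken out, where 1 and 0 members are called.

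With 1 library a side, OK107 and Tdc2 were not tested against each other in H3K27ac. No member differed by 1 or more on the log2 scale, and 2.69% of all genes did, 0.136% higher and 2.56% lower in OK107. The members' differences ran from -0.80 at Akh to 0.36 at Ilp1, with a median of -0.13.

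In H3K4me3 no member was called in OK107 against R57C10 or Tdc2 against R57C10 by edgeR's quasi-likelihood test, with 0.00679% and 0% of all genes called. At an unadjusted p under 0.05 edgeR also found 0 members in either comparison, and DESeq2 called 0. The spread between the 2 R57C10 libraries was wide: early was higher than late at 35 of 38 members, by a median of 0.99 on the log2 scale, and 19 members differed by over 1. The sNPF gene, for example, held 21.4 CPM in OK107, against 17.6 and 14.1 CPM in R57C10, a log2 fold of 0.43 ± 1.28 (SE, edgeR adjusted p = 1.00). Proct, with more of the mark than most members, held 19.2 CPM in Tdc2, against 32.7 and 35.7 CPM in R57C10, a log2 fold of -0.83 ± 0.95 (SE, edgeR adjusted p = 0.653). The members' median log2 fold in Tdc2 against R57C10 was 1.54, against 0.50 over all genes, and no fold of that size passed at this spread.

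In OK107 against Tdc2, without a test, H3K4me3 was lower in OK107 by 1 or more on the log2 scale at 26 of 38 members and higher at none, against 49.1% of all genes past 1 in either direction, 11.6% higher and 37.4% lower in OK107. All 7 insulin-like genes were among the 26, with differences between -1.59 and -1.13. Positive values were found at 4 members. Proct held 32.8 CPM in OK107, against 19.2 CPM in Tdc2, a difference of 0.77, and Lk differed by 0.50, Nplp1 by 0.25 and sNPF by 0.20. With the trend of differences along level taken out, no member was past 1 and 13 of the 26 turned positive, by 0.028 to 0.22; among all genes the split became 216 higher and 55 lower, in place of 1713 higher and 5516 lower.

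The other genes of the pathway were counted as lists. In H3K27me3, of 31 receptor genes, 13 were higher and 0 lower in OK107 against Tdc2, where 14% of all genes were higher and 1.46% lower. They were led by the PDF receptor gene Pdfr with a log2 fold of 1.50 ± 0.16 (SE, edgeR adjusted p = 9.02e-05), the myosuppressin receptor DmsR-2 (1.37 ± 0.16, edgeR adjusted p = 0.000164) and the short neuropeptide F receptor sNPF-R (1.36 ± 0.18, edgeR adjusted p = 0.000263). Pdfr stood at 538 CPM in OK107 and 189.7 ± 15.6 CPM in Tdc2 (SD). In Tdc2 against R57C10, 1 receptor was higher and 10 were lower, against 4.95% and 14.7% of all genes, among them the allatostatin C receptor star1 (-1.11 ± 0.16, edgeR adjusted p = 0.000369) and DmsR-1 (-0.93 ± 0.15, edgeR adjusted p = 0.000740). In OK107 against R57C10, 5 were higher and 1 lower, against 1.57% and 0.617% of all genes, with Pdfr at 1.06 ± 0.16 (SE, edgeR adjusted p = 0.00801) and the sulfakinin receptor CCKLR-17D3 at -0.96 ± 0.17 (SE, edgeR adjusted p = 0.0134).

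In H3K27ac, AkhR, the receptor of adipokinetic hormone, was higher in both lines, by a log2 fold of 1.25 ± 0.28 (SE, edgeR adjusted p = 0.000861) in OK107 and 1.66 ± 0.28 (SE, edgeR adjusted p = 3.9e-07) in Tdc2, each against R57C10. Of all genes depleted 2-fold or more in both R57C10 libraries, 22.8% were called higher in OK107 and 68.5% in Tdc2. AkhR was so depleted and stayed below input in every library, with log2 ratios of -1.29 in OK107, -0.87 in Tdc2 and -2.64 and -2.53 in R57C10. It was the only receptor of the 31 called higher in OK107, where 3 were lower, against 7.42% higher and 3.07% lower of all genes, among them the allatostatin A receptor AlstR (-1.23 ± 0.33, edgeR adjusted p = 0.00615) and DmsR-2 (-1.07 ± 0.32, edgeR adjusted p = 0.0146). In Tdc2 against R57C10, where 20.2% of all genes were higher and 7.68% lower, 3 receptors were higher, among them the proctolin receptor Proc-R (1.15 ± 0.33, edgeR adjusted p = 0.00345), and 1 was lower, DmsR-1 (-0.94 ± 0.32, edgeR adjusted p = 0.0155). Proc-R was also below input in every library, with log2 ratios of -1.22 in OK107, -0.36 in Tdc2 and -1.73 and -1.54 in R57C10. In H3K4me3, 0 receptors and 0 processing genes passed edgeR's test in OK107 or in Tdc2 against R57C10, and at an unadjusted p under 0.05 edgeR found 1, a processing gene in Tdc2.

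Among 11 genes that process and release the peptides, 4 were lower and 1 higher in H3K27ac in Tdc2 against R57C10, and 7.68% of all genes were lower and 20.2% higher. In OK107 against R57C10, 2 were lower and 0 higher, and 3.07% of all genes were lower. Caps, needed for release of dense-core vesicles, held 2.52 CPM in OK107 and 4.64 CPM in Tdc2, against 16.1 and 6.17 CPM in R57C10, whose libraries lay far apart. Its log2 fold was -2.18 ± 0.44 (SE, edgeR adjusted p = 0.000116) in OK107 and -1.29 ± 0.41 (SE, edgeR adjusted p = 0.0105) in Tdc2. Without early R57C10 it was -1.29 in OK107 and -0.41 in Tdc2, values with no test, from an alternative chosen after seeing the data. In H3K27me3, 0 of the 11 were called in OK107 against R57C10 by edgeR, and 0 had an unadjusted p under 0.05. In Tdc2 against R57C10, 2 were lower and 1 higher, against 14.7% and 4.95% of all genes, and IA-2, a protein of dense-core vesicles, led the lower ones (-0.89 ± 0.15, edgeR adjusted p = 0.000980). In OK107 against Tdc2, 2 were higher and 1 lower, against 14% and 1.46% of all genes.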

How the data were processed

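The authors deposited a table of raw read counts per annotated isoform on the dm3 assembly, taken here from windows of 1001 bp at promoters for H3K4me3 and H3K27ac, and from gene bodies for H3K27me3, each with its inputs. Per the submitters' processing notes, CASAVA 1.8, Bowtie 0.12.7 and bedtools 2.15 were used; the handling of reads with several matches is not given in the sources used here. Per the labels, the antibodies came from Abcam (H3K4me3, H3K27ac) and Millipore (H3K27me3). In the same tables, 49 further sample columns were not used, and a window table without R57C10 was not analysed here. Isoforms without a gene (203 of 25701 entries, 0.463 to 1.16% of the reads of a library) and 92 spike-in entries (0 reads) were left out. Symbols of all 38 members matched a RefSeq gene table by identifier.

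Models were fitted mark by mark in R 4.3.3 with edgeR 4.0.16, TMM scaling, its default expression filter, all 3 lines in a model and Benjamini-Hochberg adjustment over all genes tested (14585 for H3K27me3, 14732 for H3K4me3, 14710 for H3K27ac). All 38 members passed the filter in every mark. Residual degrees of freedom were 2, 1 and 1 in that order. SE is that of the log2 fold and SD that between libraries. Ratios over input used CPM by total count with a prior count of 2. OK107 against Tdc2 in H3K4me3 and H3K27ac had 1 library a side and no test. The steps were checked on simulated counts. The members and lists were chosen with earlier results of these data known. All members are named. From the receptor and processing lists at most 4 genes a comparison are named, called ones first by fold. Alternatives were RLE and total count scaling, loess scaling along level or enrichment, an input offset, no filter, DESeq2 1.42.0, the isoform with the largest input, a model of 2 lines, each replicate left out, a prior count of 10 and ratios centred on the median. Counts of H3K27me3 in promoter windows were also fitted, after the data were seen, and are not reported here.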

Additional observations from a re-analysis of the deposited data

Results flagged for a closer look

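The effects of the 2 drivers against R57C10 differed in H3K27me3 at 3 members, by the direct test of OK107 against Tdc2. The same test called 15.4% of all genes, 14% higher and 1.46% lower in OK107. Members were thus called less often than all genes, and these 3 calls do not set the peptide genes apart. Ilp7 had a log2 fold of 1.25 in OK107 against Tdc2, with 0.45 in OK107 and -0.80 in Tdc2, each against R57C10. Tk had 0.84, with 0.20 in OK107 and -0.64 in Tdc2. Dh31 had 0.75, with 0.57 in OK107 and -0.19 in Tdc2. Each call was lost in some of 13 other settings: Ilp7 with total count scaling (0.85) and an input offset (0.88), Tk along enrichment (0.043), and Dh31 along enrichment (0.40) and without late Tdc2 (0.66).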

How the results depend on the processing

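Counts of called members moved with the processing, and calls over all genes moved too. In H3K27me3, OK107 against R57C10 gave 1 call, and 0 with RLE scaling, 2 with DESeq2 or scaling along enrichment, 3 with total count scaling, scaling along level or an input offset, and 4 with the 2 lines only; with a library left out it gave 3 to 5. Tdc2 against R57C10 gave 7, and 11 with total counts and 4 along enrichment; with a library left out it gave 3 (without late R57C10) to 11 (without early Tdc2). OK107 against Tdc2 gave 3, and 5 with total counts or the 2 lines only; with a library left out it gave 5 to 14. In H3K4me3, scaling along level gave 1 call in Tdc2 against R57C10, in place of 0, and 0 members past 1 in OK107 against Tdc2, in place of 26. In H3K27ac, OK107 against R57C10 gave 3, and 7 with total counts, 1 along level or enrichment and 0 with DESeq2; Tdc2 against R57C10 gave 13, and 0 along level or enrichment and 6 with DESeq2. With ratios centred on the median gene, members at 2-fold or more over input in H3K27me3 numbered 6 in OK107, 1 in Tdc2 and 8 in R57C10, in place of 1, 0 and 1, and in H3K4me3 4, 1 and 1, in place of 0; with a library left out, R57C10 gave 1 to 2 in H3K27me3. The median gene lay below input in every library of H3K27me3 and H3K4me3, so centring raised the ratios of all genes alike. The share of all genes at 2-fold after centring is not given here. The centred counts are therefore not a result about the members. The cause was not tested in any of these cases.

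Reversals were found at Tk in H3K27me3 of Tdc2 against R57C10 (0.18) and burs in H3K27ac (-0.01), both along enrichment. In H3K4me3 of OK107 against Tdc2 scaled along level they were found at Ilp4 (0.19), Ilp5 (0.11), Ilp6 (0.17), Ilp7 (0.09), amn (0.22), Ast (0.084), Ast-CC (0.096), Mip (0.18), Dsk (0.19), hug (0.15), Dms (0.20), capa (0.028) and itp (0.18). Calls over all genes ranged with the setting too. For OK107 against R57C10 they numbered 146 to 993 in H3K27me3 (319 as reported), 1 to 158 in H3K4me3 (1) and 180 to 1989 in H3K27ac (1543). For Tdc2 against R57C10 they numbered 1610 to 5334 in H3K27me3 (2870), 0 to 303 in H3K4me3 (0) and 266 to 5350 in H3K27ac (4096). Leaving out a library in H3K4me3 or H3K27ac left no residual degrees of freedom and gave values with no test. No paired analysis was possible because the columns of the table carry no replicate number. H3K27me3 at Pdf in late Tdc2 rested on 20 reads, and counting limits the precision of short genes in that library.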
